A study of Homo sapiens with 6 samples.

Results

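The mRNA of 10 genes that govern the passage of a cell from G1 into S phase was examined in BaF3-T315I cells after exposure to I13. They were taken by gene name from a table of 22413 genes, and each of the 10 names was found once. They are the D and E cyclin genes Ccnd2, Ccnd3 and Ccne1, the kinase genes Cdk4, Cdk6 and Cdk2, the pocket protein genes Rb1 and Rbl1, and the transcription factor genes E2f1 and E2f2. BaF3 is a murine interleukin-3-dependent pro-B cell line, and the BaF3-T315I cells, in both groups alike, had been stably transfected with BCR-ABL carrying the T315I mutation. I13 is an inhibitor of histone deacetylases derived from indole-3-butyric acid. The I13 group held 3 samples given I13 at 1.1 µM and harvested at 48 h, and the control group held 3 samples whose vehicle and time are not given in the sources used here. The exposure time is not in the labels and was taken from the study's account of the experiment. The labels name the organism as human, whereas the cells are murine and the gene identifiers of the table are those of mouse, so the genes were read as mouse genes.

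A cell in G1 makes D cyclins in response to growth signals. The D cyclins bind CDK4 and CDK6, cyclin E binds CDK2, and these kinases phosphorylate the retinoblastoma protein and its relatives. The unphosphorylated pocket proteins hold E2F factors and keep their target genes silent, while phosphorylation releases the E2F factors and the genes for DNA synthesis are transcribed. In lymphoid and myeloid progenitors the D cyclins are largely D2 and D3, and CDK6 stands beside CDK4. Kinase activity, phosphorylation and protein amounts were not part of this data set.

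The values are FPKM, the fragments on a gene divided by gene length and by library size, so that levels can be compared between genes. The library totals recovered from the FPKM ran from 17622311 to 17722950 fragments in the controls. They ran from 16762119 to 17623236 fragments in the I13 samples. The least covered of the 10 genes, E2f1, still had 369 to 529 fragments in each library. Groups were compared with limma on log2(FPKM + 0.1) in the 12163 genes with a mean of at least 0.5 FPKM, which all 10 passed. A gene counted as called when its Benjamini-Hochberg adjusted p was under 0.05 and its log2 fold change, in either direction, reached 0.58. Nothing in the labels says that the replicates came from separate cultures, and the study's general statement that its experiments were repeated independently does not speak of the sequenced samples. The p-values therefore measure the spread between these samples, which may be technical.

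The cells were checked against markers of the line. The receptor genes of interleukin-3 and the pan-leukocyte gene Ptprc were present, with Csf2rb the most abundant of the 10 markers of the line in the table at 329 ± 118 FPKM in the control and 588 ± 218 FPKM after I13 (SD, n = 3 each). Cd79a, a component of the B cell receptor, was present at 21.6 ± 6.55 and 25.2 ± 2.1 FPKM (SD, n = 3 each), and its partner Cd79b at 5.28 ± 1.69 and 4.77 ± 1.75 FPKM, with overlapping groups for both. The B lineage factor genes Pax5 and Ebf1 were at 0 in all controls, and Vpreb1 and Igll1 stayed near 0. Part of the pro-B identity ascribed to the line is thus not seen in the mRNA. Csf2rb and Csf2rb2 are near-identical copies, and reads shared between them cannot be assigned with certainty. The summed FPKM of the 10 pro-B and interleukin-3 receptor markers in the table was 592, 472 and 929 in the controls and 951, 1004 and 1699 after I13, without overlap, and most of it in every sample came from Csf2rb and Csf2rb2. Among markers of other cell types, the macrophage gene Adgre1 was measured at 32 ± 12 and 64.3 ± 17.6 FPKM (SD, n = 3 each) and its companion Lyz2 at 1.55 ± 0.19 and 2.82 ± 1.1 FPKM. Their summed FPKM was 39, 19.9 and 41.6 in the controls and 74.4, 48.2 and 78.8 after I13, so that the groups did not overlap. The erythroid gene Hba-a1 was measured at 1.18, 0.210 and 0.559 FPKM in the controls and at 5.66, 2.94 and 2.11 FPKM after I13, also without overlap. The summed FPKM of the T cell markers and that of the fibroblast markers, taken separately, were each below 0.13 in every sample. None of the markers was called without the replicate block, where the smallest adjusted p from limma was 0.109. With the block Csf2rb, Csf2rb2, Adgre1 and Hba-a1 were called, all higher after I13, at adjusted p-values from limma between 0.0308 and 0.0384. The part of these marker differences in the results below was not tested.

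Of the 10 genes, 0 were called after I13, where 0.0411% of all genes tested were called. At the same thresholds, with a test it does not name, the study listed Cdk4 and Rb1 among its differentially expressed pathway genes. The reason for this difference was not tested. An unadjusted p below 0.05 from limma was reached by 2 of the 10, Cdk4 on the lower side (10.8% of all genes tested) and Rb1 on the higher side (7.79%). The share of 20% is close to the 18.6% of all genes tested in either direction. The control and I13 values did not overlap in 3 of the 10 genes, Cdk4 and Cdk2 lower after I13 and Rb1 higher, against 25.2% of all genes tested. Within the replicate numbers, Cdk4 and Cdk2 were lower after I13 in all 3 pairs (27.3% of all genes tested), and Rb1, Ccnd2 and E2f1 were higher in all 3 (24.1%). The median log2 fold change of the 10 genes was -0.006, against -0.005 over all genes tested, with 5 genes higher and 5 lower. The counts of the 10 genes were thus near those of the whole table. Samples with the same replicate number in both groups deviated together, and a fit with the number as a block was run beside the unblocked one. In it, 1 of the 10 genes, Cdk4, had an adjusted p below 0.05 (2.99% of all genes tested), and 0 also reached the fold change threshold (1.89%). An unadjusted p below 0.05 was found for Cdk4 and Rb1 in the blocked fit (28.0% of all genes tested), and for these and E2f2 with voom and the block (30.8%). With voom on the recovered fragments and the block, 2 of the 10, Cdk4 and Rb1, had an adjusted p below 0.05 from limma (12.4% of all genes tested), and 1, Rb1, was called (4.14%).

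**Figure D1:**
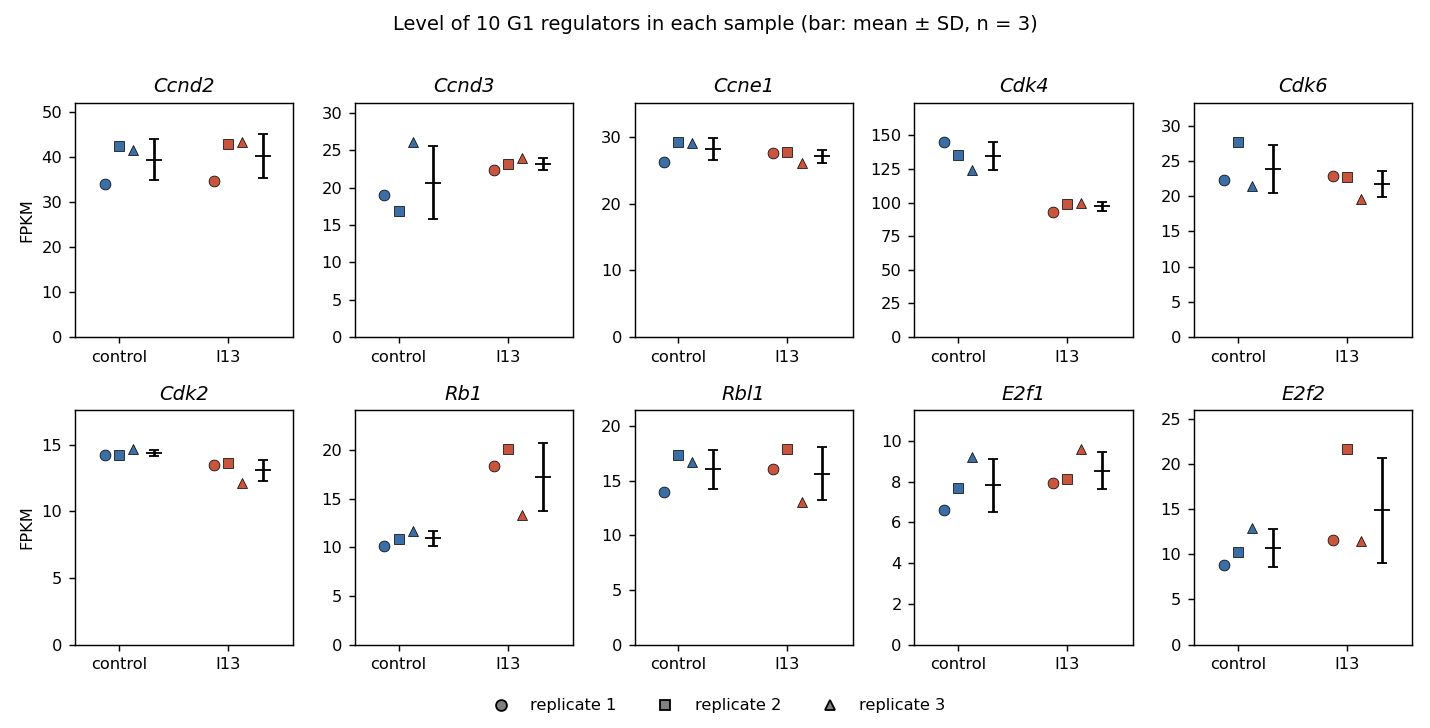
FPKM (vertical axes, starting at 0) of the 10 genes in the control samples (blue) and the I13 samples (red), with the symbol giving the replicate number and the bars the mean ± SD of 3 samples. The groups are apart for Cdk4, Cdk2 and Rb1, 1 sample stands high for E2f2, and the same pattern over replicate numbers is seen in both groups for Ccnd2.

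The order of the levels over all samples was led by Cdk4 at a mean of 116 FPKM, followed by Ccnd2 at 39.8, Ccne1 at 27.7, Cdk6 at 22.8 and Ccnd3 at 21.9 FPKM. Rbl1 at 15.8, Rb1 at 14.1, Cdk2 at 13.7, E2f2 at 12.8 and E2f1 at 8.18 FPKM came after them. The ranges over the 6 samples of Cdk4 and of Ccnd2 were separate from those of their neighbours. From Ccne1 downwards, the range of each gene overlapped that of the next one in the order, although within each sample Ccne1 lay above Cdk6 and E2f2 above E2f1. Cdk4 was thus more abundant per length than 96.5% of the genes tested, while E2f1 lay close to the middle with 52.4% below it.

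The D cyclin genes encode the regulatory subunits that activate CDK4 and CDK6. In replicates 1, 2 and 3 of the control, Ccnd2 was measured at 34, 42.4 and 41.5 FPKM, and after I13 the same numbers gave 34.5, 42.7 and 43.3 FPKM. The groups overlapped almost entirely, and within each number the I13 sample lay slightly above its control. Between the groups the log2 fold change was 0.03 with a 95% interval from -0.28 to 0.34 (standard error 0.13, adjusted p = 0.922 from limma). With the replicate block the interval narrowed to -0.13 to 0.19 (adjusted p = 0.787 from limma). Both intervals leave out the fold change threshold on either side. Ccnd2 is the gene of the 10 whose variation most followed the replicate number, with 98.4% of its sum of squares between the numbers and 1.07% between control and I13. Leaving out I13 replicate 2, I13 replicate 3 or control replicate 1 turned its sign.

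Ccnd3 was measured at 19, 16.9 and 26.1 FPKM in the controls and at 22.3, 23.1 and 24 FPKM after I13. All I13 values fell inside the range of the controls, among which replicate 3 was the highest of all 6 samples. I13 minus control gave a log2 fold change of 0.19 with a 95% interval from -0.19 to 0.57 (standard error 0.16, adjusted p = 0.566 from limma). Without control replicate 3 the estimate was 0.37 and without control replicate 2 it was 0.05, so it depends on which control is present. A processed pseudogene, Ccnd3-ps, stayed at or below 0.515 FPKM in every sample, and it was looked up after the values of Ccnd3 had been seen. Cyclin D1, the third D cyclin, was nearly silent, with Ccnd1 at 0 to 7 fragments per library.

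Ccne1 encodes cyclin E1, which activates CDK2 late in G1. It was measured at 26.3, 29.3 and 29.1 FPKM in the controls and at 27.7, 27.7 and 26 FPKM after I13. The groups overlapped, and of the 10 genes Ccne1 had the smallest standard error of the difference. Its log2 fold change was -0.05 with a 95% interval from -0.26 to 0.15 (standard error 0.09, adjusted p = 0.767 from limma), and the interval leaves out the fold change threshold. Without control replicate 1 the value was -0.10 and without I13 replicate 3 it was -0.02.

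The kinase genes gave a less even picture. Cdk4 encodes the main kinase partner of the D cyclins in many tissues and was measured at 145, 135 and 124 FPKM in the controls and at 93.1, 98.8 and 99.6 FPKM after I13. Every I13 sample lay below every control, and the difference within a replicate number was -0.64, -0.45 and -0.32 on the log2 scale for numbers 1, 2 and 3. The I13 mean was 72% of the control mean, and the log2 fold change was -0.47 with a 95% interval from -0.68 to -0.26 (standard error 0.09, adjusted p = 0.106 from limma). With the replicate block the adjusted p from limma was 0.049, at a log2 fold change that stayed under the threshold of 0.58. With voom on the recovered fragments and the block it was 0.0106, at the same log2 fold change of -0.47. In blocked fits on 4 samples, which were chosen after seeing the data, the log2 fold change was -0.39, -0.48 and -0.55 without replicates 1, 2 and 3, with adjusted p-values from limma of 0.0833, 0.311 and 0.0859. Those fits have few residual degrees of freedom. Of the sum of squares of Cdk4, 91.5% lay between control and I13, against a median of 25.9% over all genes tested. Between 5332 and 8359 fragments per library stood behind these values. Less Cdk4 mRNA per cell and fewer cells with a high level cannot be told apart in bulk RNA, and this holds for every gene described here.

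In the mammalian genome Tspan31 lies next to Cdk4 on the opposite strand. Whether fragments were counted by strand is not given in the sources used here, so reads from overlapping ends could be shared. Tspan31, looked up after the values of Cdk4 had been seen, was measured at 30.3 ± 5.62 FPKM in the control and 28.1 ± 2.1 FPKM after I13 (SD, n = 3 each). Its groups overlapped, with a log2 fold change of -0.10 (adjusted p = 0.756 from limma).

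Cdk6, the second kinase of the D cyclins, was measured at 22.3, 27.7 and 21.4 FPKM in the controls and at 22.9, 22.7 and 19.5 FPKM after I13. The groups overlapped, and control replicate 2 stood above all other samples. For Cdk6 the log2 fold change was -0.13 with a 95% interval from -0.43 to 0.17 (standard error 0.13, adjusted p = 0.62 from limma), and it was -0.02 without control replicate 2 and -0.20 without control replicate 3. Cdk2, the partner of cyclin E, was measured at 14.2, 14.3 and 14.7 FPKM in the controls and at 13.5, 13.7 and 12.2 FPKM after I13. The groups did not overlap, and all 3 I13 samples were lower. The difference was small all the same, with a log2 fold change of -0.14 and a 95% interval from -0.35 to 0.07 (standard error 0.09, adjusted p = 0.447 from limma), and it was -0.08 without I13 replicate 3.

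**Figure D2:**
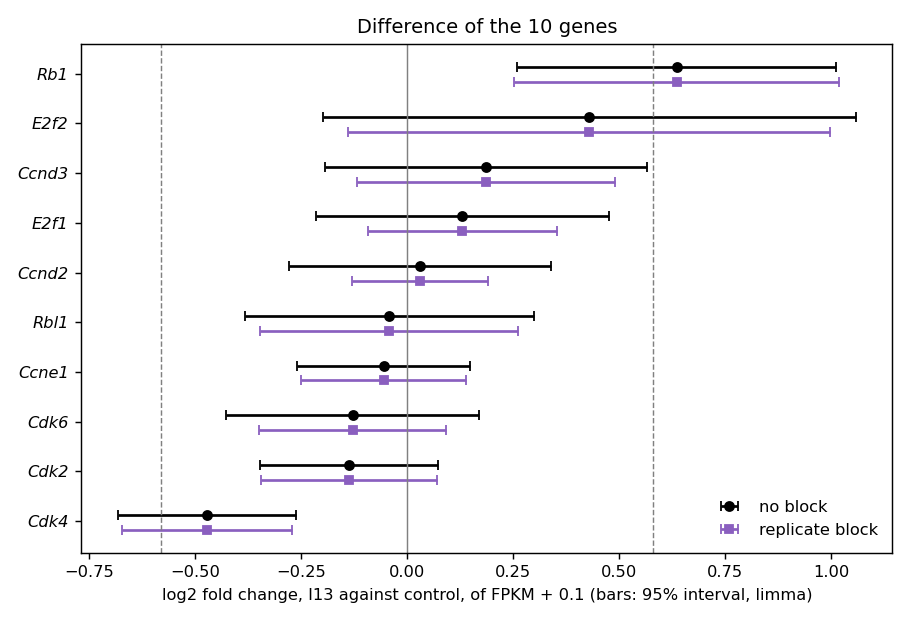
Log2 fold change of FPKM + 0.1 between I13 and control (horizontal axis) for the 10 genes, with 95% intervals from limma without a block (black circles) and with the replicate number as a block (purple squares). Dashed lines mark the fold change threshold of 0.58, and only the intervals of Cdk4 and Rb1 leave out 0.

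Of the pocket protein genes, Rb1 and Rbl1 gave different values. Rb1 encodes the retinoblastoma protein, which restrains E2F factors in G1, and was measured at 10.2, 10.9 and 11.7 FPKM in the controls and at 18.3, 20.1 and 13.4 FPKM after I13. Every I13 sample lay above every control, though I13 replicate 3 came close to them. The difference within a replicate number was 0.84, 0.88 and 0.19 on the log2 scale for numbers 1, 2 and 3. The log2 fold change was 0.64 with a 95% interval from 0.26 to 1.01 (standard error 0.16, adjusted p = 0.126 from limma), so Rb1 passed the fold change threshold and missed that of the adjusted p. With the replicate block the adjusted p from limma was 0.0792. With voom on the recovered fragments and the block, Rb1 was called, with a log2 fold change of 0.64 and an adjusted p of 0.0179 from limma, where 4.14% of all genes tested were called. In the blocked fits on 4 samples, without voom and chosen after seeing the data, its log2 fold change depended on the pairs present. It was 0.53, 0.51 and 0.86 without replicates 1, 2 and 3, with adjusted p-values from limma of 0.185, 0.374 and 0.0788. Rb1 had the largest absolute log2 fold change of the 10 genes, larger than that of 92.2% of all genes tested.

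Rbl1 encodes p107, a relative of the retinoblastoma protein that binds repressive E2F factors. It was measured at 14, 17.4 and 16.7 FPKM in the controls and at 16, 17.8 and 13 FPKM after I13. The groups overlapped, and I13 replicate 3 was the lowest of the 6 samples, as Rb1 was the lowest in that replicate among the I13 samples. The log2 fold change of Rbl1 was -0.04 with a 95% interval from -0.38 to 0.30 (standard error 0.14, adjusted p = 0.901 from limma), and it turned positive without I13 replicate 3 or without control replicate 2.

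E2f1 and E2f2 encode activating E2F factors, which drive the genes of DNA synthesis. E2f1 was the least abundant of the 10 genes, with 6.6, 7.7 and 9.19 FPKM in the controls and 7.92, 8.11 and 9.58 FPKM after I13. The groups overlapped, while within each replicate number the I13 sample was the higher one. For E2f1 the log2 fold change was 0.13 with a 95% interval from -0.21 to 0.48 (standard error 0.15, adjusted p = 0.669 from limma), and 79% of the sum of squares lay between the replicate numbers. The value depended on single samples, at 0.02 without control replicate 1, 0.05 without I13 replicate 3 and 0.25 without control replicate 3.

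E2f2 was measured at 8.8, 10.3 and 13 FPKM in the controls and at 11.6, 21.7 and 11.5 FPKM after I13. I13 replicate 2 stood far above the other samples, and the other two I13 samples lay within the range of the controls. The high value rested on 1773 fragments, against 761 to 1117 in the other libraries. For E2f2 the log2 fold change was 0.43 with a 95% interval from -0.20 to 1.06 (standard error 0.27, adjusted p = 0.42 from limma), the widest interval of the 10 genes. Without I13 replicate 2 the log2 fold change was 0.13, so the difference in E2f2 rests on that library.

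**Figure D3:**
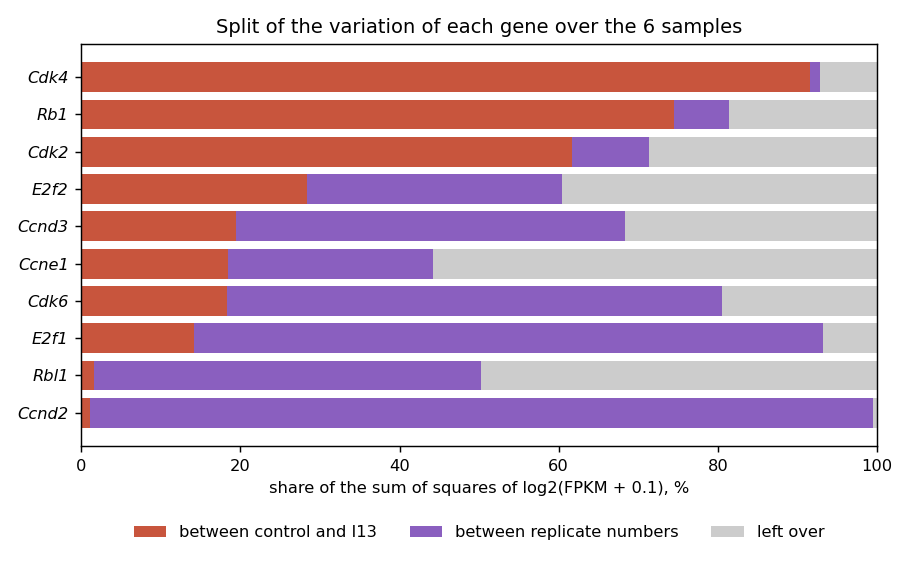
Share of the sum of squares of log2(FPKM + 0.1) over the 6 samples (horizontal axis, %) that lay between control and I13 (red, 1 degree of freedom), between the replicate numbers (purple, 2 degrees of freedom) and in neither (grey). Cdk4, Rb1 and Cdk2 have most of their variation between the conditions, and Ccnd2, E2f1 and Cdk6 have most of it between the replicate numbers.

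The variation of these genes split in opposite ways. In Cdk4, Rb1 and Cdk2 between 61.7% and 91.5% of the sum of squares lay between control and I13. In Ccnd2, E2f1 and Cdk6 between 62.2% and 98.4% lay between the replicate numbers. Over all genes tested the median shares were 25.9% and 42.2%.

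The balance between genes of the same kind was taken as a ratio of FPKM within each sample, in which the scaling of the library cancels. These 4 ratios were compared by two-sided exact permutation tests, which with 3 against 3 samples cannot give a p below 0.1. The ratio of Rb1 to Rbl1 was 0.727, 0.625 and 0.701 in the controls and 1.14, 1.12 and 1.02 after I13. Rb1 was thus below Rbl1 in every control and above it in every I13 sample. The mean ratio was 0.684 ± 0.0531 in the control and 1.1 ± 0.0638 after I13 (SD, n = 3 each). The log2 difference was 0.68, a fold of 1.6. The exact permutation p was 0.1, the smallest the design allows, and 0.4 after Benjamini-Hochberg adjustment over the 4 ratios. Within the 3 pairs of replicate numbers the exact permutation p was 0.25 both for this ratio and for that of Cdk4 to Cdk6, the smallest that 3 pairs allow. The I13 values of this ratio lay closer together than those of Rb1 alone, with I13 replicate 3 the lowest of its group for both genes.

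The ratio of Cdk4 to Cdk6 was 6.5, 4.89 and 5.8 in the controls and 4.07, 4.36 and 5.1 after I13. The groups overlapped by 1 sample on either side, and within each replicate number the I13 ratio was the lower one. The fold between the groups was 0.789 (exact permutation p = 0.2, adjusted 0.4). Cdk4 remained at least 4.07 times as abundant per length as Cdk6 in every sample. The ratio of Ccnd2 to Ccnd3 was 1.97 ± 0.488 in the control and 1.73 ± 0.162 after I13 (SD, n = 3 each, exact permutation p = 0.7, adjusted 0.7), with Ccnd2 above Ccnd3 in every sample. The ratio of E2f2 to E2f1 was 1.33, 1.34 and 1.41 in the controls and 1.47, 2.67 and 1.2 after I13 (exact permutation p = 0.7, adjusted 0.7). Its controls lay close together, and only I13 replicate 2 departed from them by much.

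**Figure D4:**
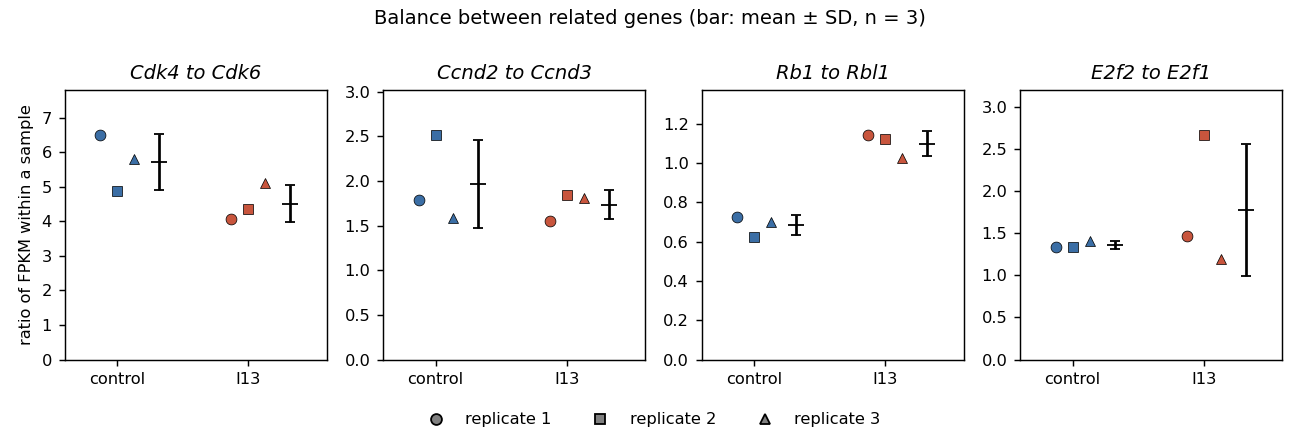
Ratio of FPKM within each sample (vertical axes, starting at 0) for Cdk4 to Cdk6, Ccnd2 to Ccnd3, Rb1 to Rbl1 and E2f2 to E2f1, with the symbol giving the replicate number and the bars the mean ± SD of 3 samples. The groups are apart only for Rb1 to Rbl1, where all controls lie below 1 and all I13 samples above 1.

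The wider G1/S network was described with a list of 53 other genes in 7 roles, of which 52 were in the table and 51 were tested. None of the 51 was called by limma, and 14 had an unadjusted p below 0.05, 6 higher and 8 lower after I13. This is 27.5% of the list, against 18.6% of all genes tested. When I13 replicate 1 was left out, 7 of the 51 genes lay under that limit, and over all genes tested the count was also lower, at 1478 against 2266. The median log2 fold change of the list was 0.01, against -0.005 over all genes tested. The groups did not overlap in 16 of the 51 genes, 7 higher and 9 lower after I13, against 9.82% and 15.4% of all genes tested. With the replicate block, 1 of the 51, Fbxw7, was called (1.89% of all genes tested), and it and E2f4, which did not reach the fold change threshold, had an adjusted p below 0.05 (2.99%). With voom and the block, 8 of the 51 genes had an adjusted p below 0.05 (12.4% of all genes tested). Of these 2, Cdkn2a and Fbxw7, were called (4.14%).

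Of the other cyclins, Ccne2, which encodes cyclin E2, was measured at 5.68, 8.81 and 8.61 FPKM in the controls and at 10.5, 12.5 and 9.15 FPKM after I13. All I13 values were above all controls, with a log2 fold change of 0.48 and a standard error of 0.20 (limma, adjusted p = 0.252). Its sign was the opposite of that of Ccne1, a difference that was not tested. Ccna2, the cyclin A2 gene of S phase, had 49.4 ± 5.68 FPKM in the control and 47.6 ± 5.7 FPKM after I13 (SD, n = 3 each).

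Among the 5 genes of CDK activation, 0 had an unadjusted p below 0.05. Cdc37, a chaperone partner that loads CDK4 onto HSP90, was measured at 60.9, 59.4 and 64.1 FPKM in the controls and 57.4, 54.3 and 57.4 FPKM after I13, without overlap and with a log2 fold change of -0.12 (adjusted p = 0.43 from limma). Ccnh, the cyclin of the CDK-activating kinase, had a log2 fold change of 0.09 (adjusted p = 0.727 from limma).

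Of the 6 CDK inhibitor genes tested, 2 were higher and 1 was lower at an unadjusted p below 0.05, and 0 passed after adjustment without the block. Cdkn2b, which encodes the CDK4 and CDK6 inhibitor p15, was measured at 3.16, 3.26 and 2.04 FPKM in the controls and at 3.46, 6.12 and 5 FPKM after I13, without overlap and with a log2 fold change of 0.76 and a standard error of 0.26 (limma, adjusted p = 0.193). Its neighbour Cdkn2a, whose products are the CDK4 and CDK6 inhibitor p16 and the p53 activator ARF, had 47 fragments in control replicate 2 and 137 or more in every other library. It was measured at 6.79, 2.27 and 6.63 FPKM in the controls and at 11.2, 10.8 and 14.7 FPKM after I13, without overlap. This gave a log2 fold change of 1.35 and a standard error of 0.40 (limma, adjusted p = 0.159). With voom and the block Cdkn2a was called, with a log2 fold change of 1.25 and an adjusted p of 0.0152 from limma. The gene-level values do not tell p16 from ARF.

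Of the 7 genes of the Rb family, the MuvB core and their partners, which form complexes on the promoters of cell cycle genes, 1 had an unadjusted p below 0.05. This was Rbbp4, a histone-binding subunit, at 39.6, 36.6 and 36.9 FPKM in the controls and 33.1, 31.8 and 30.9 FPKM after I13 (log2 fold change -0.24, adjusted p = 0.199 from limma). Lin37, a MuvB subunit, had a log2 fold change of -0.34 with overlapping groups (adjusted p = 0.309 from limma).

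Of the 8 other E2F and DP genes, E2f4 and E2f5 had an unadjusted p below 0.05, in opposite directions. Both encode E2F factors known as repressors that act with pocket proteins. E2f4 was far the more abundant and was measured at 94.6, 92.4 and 81.6 FPKM in the controls and at 71.9, 72.8 and 63.9 FPKM after I13. The groups did not overlap, and the log2 fold change was -0.36 with a 95% interval from -0.59 to -0.13 (limma, standard error 0.10, adjusted p = 0.138). In the blocked fit its adjusted p from limma was 0.0478. E2f5 was measured at 4.21, 4.11 and 3.85 FPKM in the controls and at 6.08, 4.49 and 5.1 FPKM after I13, a log2 fold change of 0.35 (adjusted p = 0.239 from limma).

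Of the 7 genes of the ubiquitin ligases that destroy G1 cyclins and p27, 1 was higher and 2 were lower at an unadjusted p below 0.05. The higher one was Fbxw7, the subunit that recognises phosphorylated cyclin E, at 15.7, 9.14 and 15.3 FPKM in the controls and 22.3, 17 and 21.9 FPKM after I13. This gave a log2 fold change of 0.64 and a standard error of 0.22 (limma, adjusted p = 0.205). With the replicate block it was called, with an adjusted p of 0.0477 from limma, and with voom and the block likewise, at 0.00687. Skp2, the subunit that recognises p27, was low at 1.15 ± 0.277 and 1.55 ± 0.486 FPKM (SD, n = 3 each) with overlapping groups.

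The 16 known E2F target genes of S phase entry divided evenly, 8 higher and 8 lower after I13, with a median log2 fold change of -0.01. An unadjusted p below 0.05 was found for 1 higher and 3 lower genes, and 0 passed after adjustment without the block. Cdc45, a subunit of the replicative helicase, was measured at 26.4, 26.4 and 27.8 FPKM in the controls and at 20.3, 20.7 and 20.7 FPKM after I13. The samples of either group lay close together, and the log2 fold change was -0.38 with a 95% interval from -0.57 to -0.20 (standard error 0.08, adjusted p = 0.109 from limma). Tk1, the thymidine kinase of S phase, had 17.3, 19.8 and 22.9 FPKM in the controls and 13.2, 16.4 and 15.2 FPKM after I13, a log2 fold change of -0.42 (adjusted p = 0.183 from limma). With the replicate block the adjusted p from limma was 0.0522 for Cdc45 and 0.0671 for Tk1, and with voom and the block it was 0.0213 and 0.0203.

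**Figure D5:**
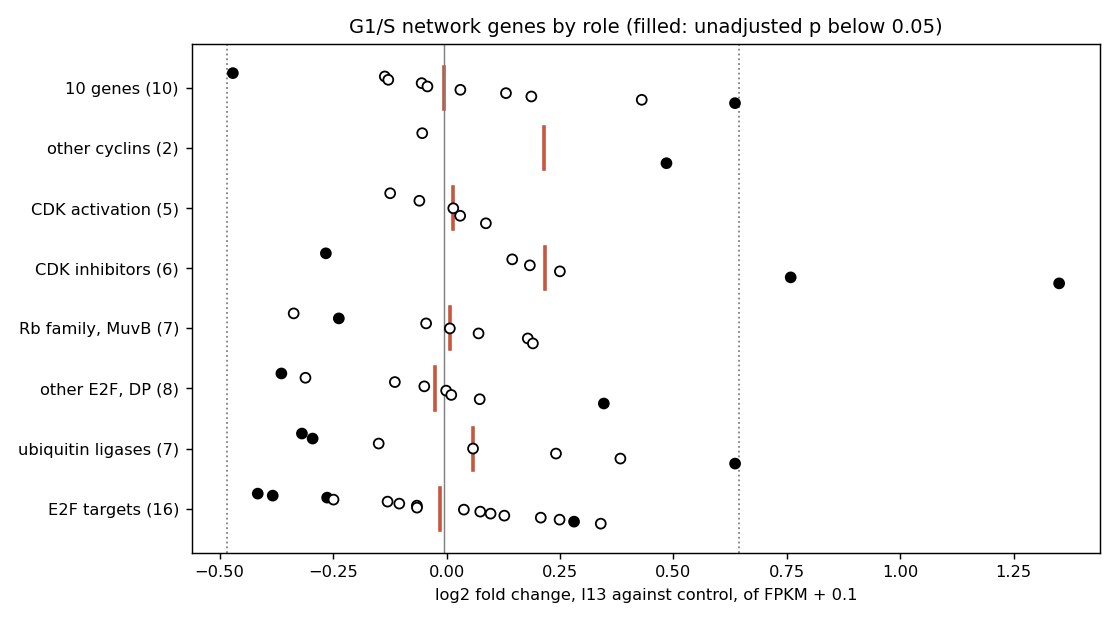
Log2 fold change of FPKM + 0.1 between I13 and control (horizontal axis) for the 10 genes and for 51 other G1/S genes by role, with filled points for an unadjusted p below 0.05 from limma and red bars for the median of each role. The solid grey line is the median of all genes tested, -0.005, and the dotted lines are their 5th and 95th percentiles. The role medians lie close to the solid line except those of the CDK inhibitors (0.217, 6 genes) and the other cyclins (0.215, 2 genes).

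The genes whose pattern over the 6 samples was most like that of Cdk4 and of Rb1 were sought among 10869 genes with a mean of at least 1 FPKM, by the root mean square difference of the centred log2(FPKM + 0.1) values. For Cdk4 they were Usp5 at 0.0324, Acacb at 0.0368 and Zbed3 at 0.0392. Usp5, a deubiquitinase that takes apart free ubiquitin chains, had 33.6, 32.1 and 30.1 FPKM in the controls and 23, 23 and 24.1 FPKM after I13. For Rb1 they were Rsg1 at 0.0375, Zfp943 at 0.0607 and Aph1b at 0.0643. Aph1b, a subunit of gamma-secretase, had 2.67, 2.78 and 2.79 FPKM in the controls and 4.35, 4.71 and 3.2 FPKM after I13, with I13 replicate 3 the lowest of its group as in Rb1. These genes were picked for their likeness among many over only 6 samples, which gives no sign of a shared role.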

How the data were processed

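The mRNA of BaF3-T315I cells was sequenced in 3 control and 3 I13 samples, assigned to groups and replicate numbers from the labels. The authors deposited FPKM, scaled to gene length and to mapped fragments, without pooling. The submitters' processing notes name Trimmomatic, HISAT2, HTSeq and Cufflinks and the human build hg38, without versions or roles, while the gene identifiers are those of mouse. The reference at hand was human, so coordinates and sequences are not analysed here. There were 0 columns of per-sample values without a sample.

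Whole fragments and gene lengths were recovered from the FPKM, within a tolerance of 0.03 fragments, for 22412 of 22413 genes, and the recovery was tested on simulated data, as was the comparison. The depth of at least 16762119 fragments limits the precision of low genes. The comparison used limma 3.58.1 in R 4.3.3 with eBayes and a trend, a pseudocount of 0.1, a minimum mean of 0.5 FPKM and Benjamini-Hochberg adjustment over all 12163 genes tested. A fold change of FPKM + 0.1 understates that of low genes. Ratios were tested by exact permutation with scipy 1.17.1, and figures drawn with matplotlib 3.10.9.

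The correlation across genes of the deviations from the group means was 0.145, 0.301 and 0.219 for replicates 1, 2 and 3. Between samples of unlike number it ran from -0.258 to 0.0503. Deviations within a group cancel out, so these correlations are not independent of each other. Each same-number value exceeded 0.1, and the numbering was therefore read as a pairing. That reading rests on the labels' numbers and on this correlation in the same data, and not on a stated batch.

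The 10 genes, the list of 53 network genes, which was written by hand, the markers and the tests were chosen with earlier results of these data known. Genes named are the 10, the 2 of each role with the largest absolute log2 fold change at a mean of at least 1 FPKM, the 3 most like Cdk4 and Rb1, and the markers. Outside this rule, Ccnd1 was named as the remaining D cyclin and Tspan31 and Ccnd3-ps as genes that could share reads, all after values had been seen. Alternatives were other pseudocounts, filters, scalings and eBayes settings, the replicate block, voom on the recovered fragments with and without the block, and leaving out each sample. Leaving out each pair in the blocked fit was chosen after seeing the data. Of the marker genes, 1 is not reported here.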

Additional observations from a re-analysis of the deposited data

How the results depend on the processing

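Over the 10 genes and 17 alternatives, 164 of 170 comparisons kept their direction and stayed uncalled, 5 reversed, and in 1 the gene passed both thresholds together, Rb1 under voom with the replicate block (0.64). Single thresholds were also crossed. Cdk4 had an adjusted p from limma of 0.049 with the replicate block and 0.0106 with voom and the block, Rb1 was at 0.52 without I13 replicate 2, below the fold change threshold, and E2f2 was at 0.58 without I13 replicate 3, at that threshold. The reversals were those of Ccnd2 without I13 replicate 2 (-0.018), I13 replicate 3 (-0.027) and control replicate 1 (-0.070), and of Rbl1 without I13 replicate 3 (0.082) and control replicate 2 (0.019). Rbl1 also reversed in the blocked fit without replicate 3 (0.12), a setting chosen after seeing the data. With each sample left out in turn, the log2 fold change ran from -0.070 to 0.14 for Ccnd2, from -0.14 to 0.082 for Rbl1, from 0.52 to 0.81 for Rb1 and from -0.53 to -0.42 for Cdk4. The log2 difference of the Ccnd2 to Ccnd3 ratio ran from -0.30 to 0.035 and was reversed without control replicate 2. That of the E2f2 to E2f1 ratio ran from -0.036 to 0.54 and was reversed without I13 replicate 2.

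Among the 10 genes, 1 was called under voom with the replicate block and 0 under the other alternatives. Of the network genes, 0 were called without the block, 1 with the replicate block and 2 with voom and the replicate block. All genes tested gave 5 calls. There were 2 at a pseudocount of 0.01, 2 after median-ratio scaling and 2 after quantile normalization, while leaving off the filter gave 8, leaving off the trend of eBayes 8, the replicate block 230 and voom with the replicate block 503. Leaving out 1 sample gave 0 to 0 calls by limma, and the unadjusted p was then below 0.05 in 1478 to 2482 genes. Fits on fewer samples have less power, and elsewhere the cause was not tested. Apart from the values given beside the results, the block changed no other call among the 10 genes, the network genes and the markers named.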
